A study of Drosophila melanogaster with 20 samples.

Results

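The digestive enzyme genes described here are the Jonah proteases, trypsins, maltases, amylases and lysozymes of Drosophila melanogaster. They were chosen by name alone from the count table: BDGP6 symbols that start with Jon, Mal-A, Mal-B, Amy- or Lys and a capital letter, or that end in Try. The rule matched 47 of 17807 genes. One of these, LysRS on chromosome X, matched by spelling only: it encodes lysyl-tRNA synthetase and serves as no digestive enzyme. The other 46 are 16 Jonah genes, 11 trypsins, 10 maltases, 7 lysozymes and 2 amylases, and the counts of genes below are over these 46. Of the lysozymes, LysC is annotated as a pseudogene and is counted with its family. All 46 passed the filter on low counts in the heat shock fit, and 45 passed in the comparison of classes without heat shock, where Jon66Cii was too low.

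Whole bodies of 2-day-old males were profiled from 10 inbred lines of the Drosophila Genetic Reference Panel, which descend from wild-caught females. Flies were reared at 25 °C and kept off CO2 beforehand, and each library pooled 10 flies of a line, with 1 library per line and treatment. Per the sample titles, RAL69, RAL93, RAL359, RAL387 and RAL409 were beneficial and RAL195, RAL304, RAL335, RAL737 and RAL819 detrimental in their outcome of preconditioning, a mild stress before a harsher one. Flies were frozen untreated, or at once after 30 minutes at 35 ± 1 °C. A pool of inbred flies stands for its line only, and p-values measure the spread between lines or between both pools of a line. The study left RAL409 out as standing apart, so tests of heat shock and class used 18 libraries of 9 lines, and tests between lines used all 20 libraries of 10 lines.

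In the fly, enzymes secreted into the midgut lumen break food down into peptides and sugars that enterocytes, the absorptive cells, take up. Jonah proteases and trypsins are serine proteases, trypsins cutting after basic residues. Amylases cut starch into short sugars, and maltases release glucose from them. Many fly lysozymes work in the gut, where they are known to digest the walls of ingested bacteria. In other settings diet, microbes and midgut region are known to set the levels of these genes. In whole bodies, fewer gut cells and less RNA per gut cell cannot be told apart.

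The genes lay in tandem clusters. All 11 trypsins lay within 20.7 kb of chromosome 2R (11336840 to 11357537), 8 maltases within 24.3 kb of 2R (8449664 to 8473961) and all 7 lysozymes within 33.5 kb of 3L (1194739 to 1228238). Of the 46 genes, 24 had a single distinct exon in the annotation, among them 10 of 11 trypsins and none of 10 maltases. This count misses some genes without introns. In betaTry, Amy-p, LysB, Jon25Bii, Jon44E, Jon65Ai and Jon99Ciii, 2 distinct exons together covered the whole gene and left no intron between them. Close neighbours limit some values, since the handling of reads that match several copies was not given in the sources used here. Amy-p with Amy-d, gammaTry with deltaTry, LysB with LysC, LysD and LysE, and Jon99Cii with Jon99Ciii are near-identical copies, so each one's own value is uncertain and sums are given beside them. LysC and LysD also overlap on opposite strands, and how the counts used strand was not given. LysB, LysC, LysE and LysS overlap the gene mwh on the same strand, and LysD and LysP overlap it on the other.

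Libraries held 18.4 to 33.7 M counts, where M is 1e+06, and the 46 genes took 1.00 to 1.99% of them. Levels are normalised read counts, given as counts per M after scaling by the trimmed mean of M values (CPM). The enterocyte genes Myo31DF (72.9 ± 12.1 CPM, SD, n = 9 lines) and mex1 (14.2 to 22.2 CPM over lines) and the endoderm factor GATAe (13.7 ± 0.915 CPM) were detected in these whole flies, as the gut is part of the sample.

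Without heat shock the 9 lines together spent most of this RNA on proteases. Jonah genes summed to 6745 ± 2123 CPM and trypsins to 3827 ± 974, against 1573 ± 775 for maltases, 1189.9 ± 509.9 for amylases and 713 ± 384 for lysozymes (SD, n = 9). A few genes carried each family. Compared per kb of exon, alphaTry had the highest mean level at 1969 CPM per kb, ranging over lines from 1213 to 3305. Jon65Aiv followed at 1878, then betaTry at 1384 and Jon99Cii at 1376 CPM per kb. The line ranges of these 4 genes overlapped, and their order inside each line was not compared.

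Among the remaining families, LysD was the highest lysozyme at 877 CPM per kb, Amy-p the higher amylase at 458 and Mal-A1 the highest maltase at 319. At the other end stood Jon66Cii at 1.17, LysS at 2.78 and Jon74E at 3.43 CPM per kb. Among trypsins, 7 stood below thetaTry (78.3 CPM per kb), in rising order etaTry (8.86), iotaTry (17.4), zetaTry (23.4), gammaTry (35.7), deltaTry (36.4), kappaTry (43.2) and lambdaTry (49.6). Their spread differed: over the 9 lines etaTry ran from 7.64 to 10.8 CPM per kb, iotaTry from 10.4 to 24.4 and gammaTry from 15.8 to 79.1. In CPM, gammaTry averaged 28.9 ± 16.0 and deltaTry 29.5 ± 14.9 (SD). CG30031 (29.4 ± 14.9 CPM) and CG30025 (37.2 ± 13.7 CPM), among the other digestive genes further below, are not in the sum of gammaTry with deltaTry. Whether these genes share reads was not tested.

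**Figure D1:**
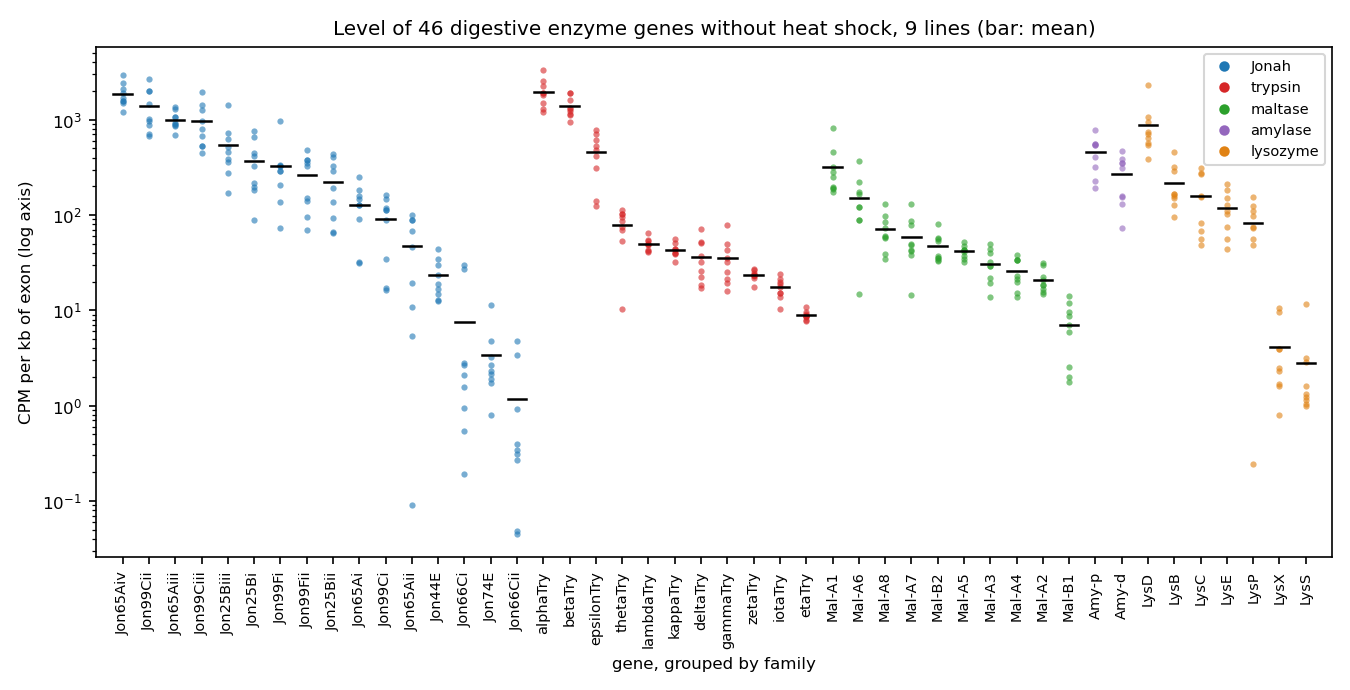
Level of each of the 46 genes without heat shock in CPM per kb of exon on a log axis. Each point is 1 of 9 lines and the bar is their mean. Within a family means fall over a wide range, from 1878 to 1.17 among Jonah genes, and points of single genes spread most for Jon65Aii, Jon66Ci and LysP.

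The first comparison asks how far the lines differed. Of 46 genes, 44 differed between the 10 lines (edgeR quasi-likelihood F test with treatment as a covariate, Benjamini-Hochberg adjusted over all genes), that is 95.7%, against 62.9% of all 13690 genes tested. The exceptions were betaTry (adjusted p = 0.125) and zetaTry (adjusted p = 0.0573). Line means of log2 CPM spanned a median of 2.26 for the enzyme genes and 0.72 for all genes. Spans over 2 log2 units were seen for 28 of 46 genes and for 11.1% of all genes. Among genes with a mean of at least 1 CPM these figures were 27 of 45 and 8.66%. Without RAL409, 43 genes were called, a count given without the share of all genes in that fit.

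The 2 widest spans of line means, 9.21 log2 units for Jon65Aii and 8.70 for LysP, came with near losses in 1 or 2 lines. LysP (FBgn0004429, 3L 1218082 to 1218696), a lysozyme known from adult salivary glands, stood between 29.8 and 95.7 CPM in both libraries of 8 lines. RAL409 had 0.114 CPM untreated and 0.205 CPM after heat, from 3 and 6 counts, and RAL737 had 0.150 and 0.227 CPM, from 4 and 4 counts. These 4 libraries lay far below all others, and the lines differed at an adjusted p of 1.08e-10 in edgeR. The other lysozymes stayed detected in both lines, for example LysE, the next gene, at 34.1 and 22.8 CPM in RAL409 and 32.5 and 31.7 CPM in RAL737. Without RAL409 the lines still differed in LysP (adjusted p = 6.74e-09).

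Jon65Aii, a Jonah protease at 3L, was nearly missing from RAL737, with 2 counts without and 3 with heat shock (0.0750 and 0.170 CPM). RAL335 (4.49 and 4.29 CPM), RAL409 (5.49 and 3.70) and RAL69 (9.04 and 5.25) were low as well, and RAL93 was highest at 82.4 and 156 CPM. The lines differed at an adjusted p of 8.49e-09 in edgeR, and with RAL737 set aside line means of log2 CPM still spanned 4.67. Its level thus varied over the other lines too.

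RAL737 was also low for thetaTry, at 10.7 CPM untreated and 10.4 CPM heated, while the other 18 libraries ran from 46.3 to 137 CPM (adjusted p = 8.94e-07, edgeR). Mal-A6 was lowest in RAL93, at 34.1 and 26.4 CPM, against 87.3 to 845 CPM in the other lines (adjusted p = 1.51e-06). Mal-A5, named here after its values were seen, was 22.6 and 10.9 CPM in RAL409 and 68.0 to 119 CPM elsewhere (adjusted p = 3.72e-05). In these 3 genes both libraries of the low line lay below every other library. Mal-A5 and Mal-A6 are adjacent maltase genes, 65 bases apart on the same strand, and each was low in a line where its neighbour was not: RAL409 had 696 and 706 CPM of Mal-A6. The submitters' processing notes name 1 build for all lines, and whether a low count in a line comes from its own sequence or its RNA level was not tested.

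**Figure D2:**
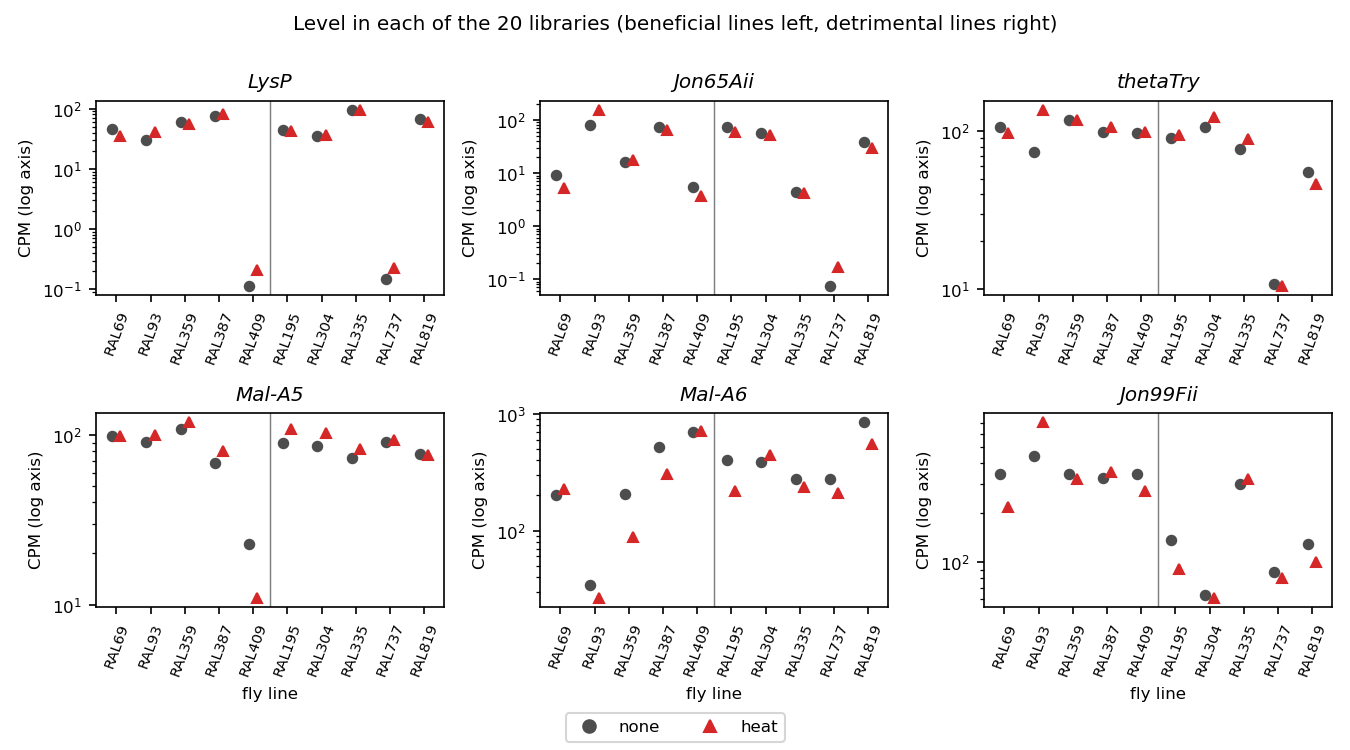
CPM on log axes of 6 genes in each of the 20 libraries, circles without and triangles with heat shock, beneficial lines on the left. LysP is low in RAL409 and RAL737, Jon65Aii and thetaTry in RAL737, Mal-A5 in RAL409 and Mal-A6 in RAL93. Both libraries of a line usually lie close together.

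Other wide differences ran the opposite way, with 1 or a few lines high. Jon66Ci, whose span of 6.95 log2 units was the third widest, was 24.9 and 50.4 CPM in RAL93 and 22.7 and 16.8 CPM in RAL195, while no other library exceeded 7.28 CPM (adjusted p = 3.26e-06, edgeR). Its neighbour Jon66Cii, 442 bases away, was highest in the same 2 lines at a much lower level (3.93 and 2.66 CPM in RAL93), with a span of 5.16. Jon74E reached 10.2 and 11.7 CPM in RAL335, and at most 5.56 CPM elsewhere (adjusted p = 5.12e-08). Jon99Fi ran from 68.1 CPM in RAL335 to 909.7 CPM in RAL69 without heat shock (adjusted p = 4.43e-04). Its neighbour Jon99Fii was highest in RAL93. Without heat shock Jon99Fii ran from 63.5 CPM in RAL304 to 442 CPM in RAL93, with RAL69 at 341 CPM.

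Jon99Ci was low in RAL69 (14.7 and 13.7 CPM) and RAL93 (15.7 and 31.3), with RAL335 next (31.6 and 21.1), and ran from 68.6 to 193 CPM in the other 7 lines (adjusted p = 6.68e-06, edgeR). The weakly detected LysX ran from 0.445 CPM in RAL819 to 5.98 CPM in RAL69 without heat shock (adjusted p = 4.81e-04). Mal-B1 ran from 3.23 CPM in RAL195 to 48.1 CPM in RAL409 (adjusted p = 0.00269). The sums of near-identical copies differed between lines as well, at adjusted p-values of 7.59e-05 for the amylases, 2.91e-05 for gammaTry with deltaTry, 0.00201 for LysB to LysE and 3.33e-04 for Jon99Cii with Jon99Ciii.

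No line was high or low throughout. RAL819 had the lowest line mean for 12 of 46 genes, 7 of them among the 16 Jonah genes, and the highest for 4 of 10 maltases. RAL737 was lowest for 10 genes, 7 of them among the 11 trypsins. RAL93 was highest for 9 genes, 6 of them Jonah genes. Summed trypsins without heat shock ran from 2505 CPM in RAL737 to 5139 in RAL69, and summed maltases from 934 in RAL93 to 3379 in RAL819. The order of lines thus differed between families.

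**Figure D3:**
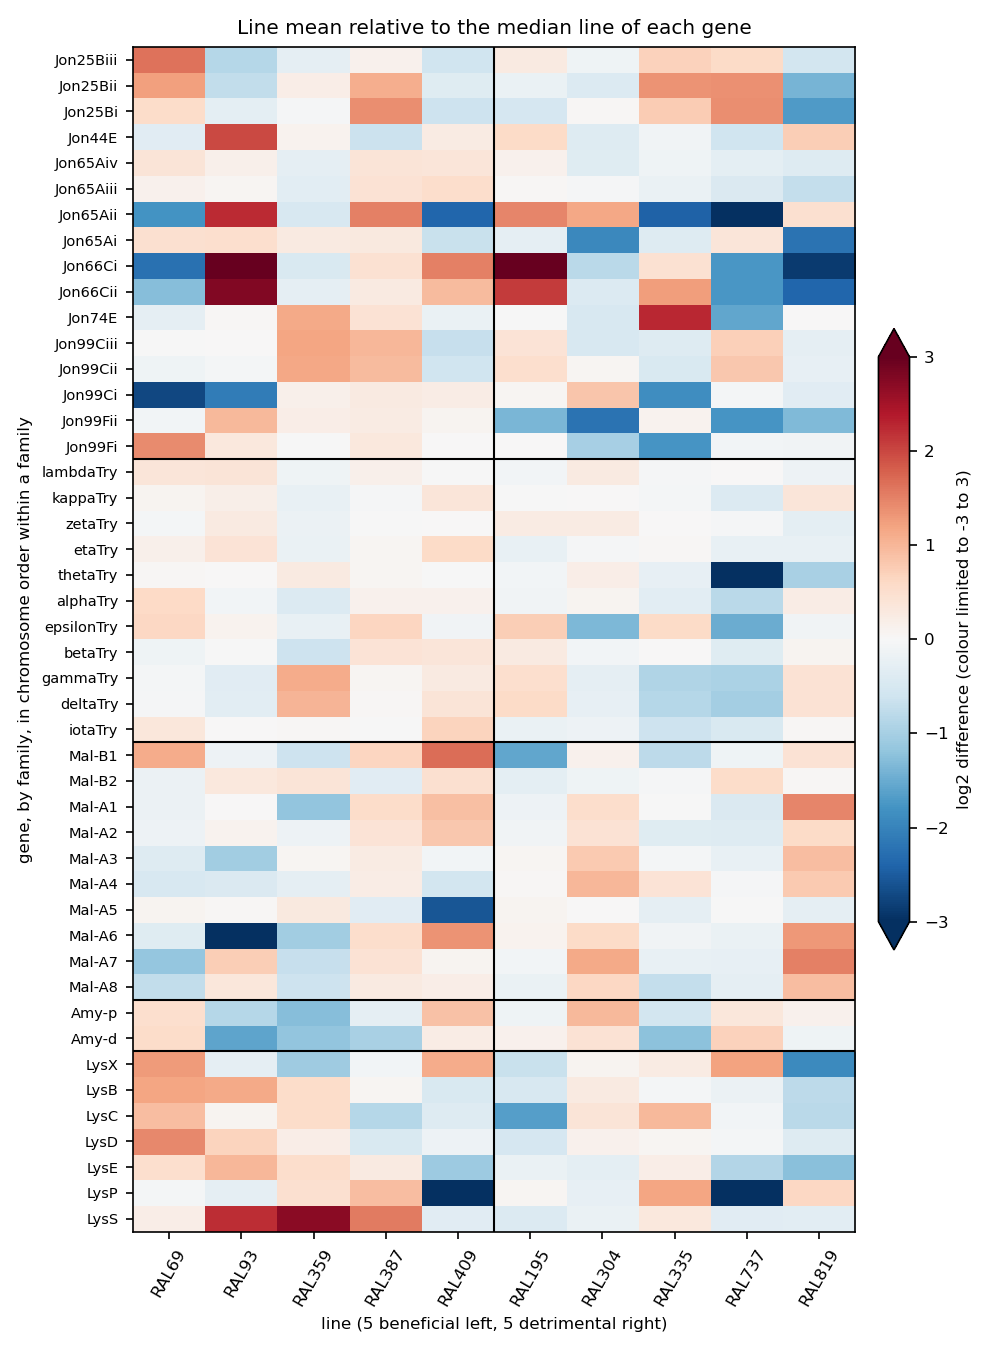
Line means of log2 CPM over both treatments, each gene set to its median over the 10 lines, with red above and blue below that median. Families are separated by lines. The deepest blue cells are LysP in RAL409 and RAL737, Jon65Aii and thetaTry in RAL737, Mal-A6 in RAL93, Jon66Ci in RAL819, Jon99Ci in RAL69 and Mal-A5 in RAL409, and the trypsins lambdaTry, kappaTry, zetaTry and etaTry stay pale.

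The comparison of heat shock with none asks what these genes did within the treatment. Of 46 genes, 3 changed and all 3 fell (edgeR, adjusted over all genes), which is 6.52%, where 18.1% of all 14270 genes were called in either direction, 8.38% higher and 9.73% lower. DESeq2 called 5 of 46, the same 3 with Jon25Bii lower and Mal-B1 higher, beside 20.4% of all genes. All 3 genes called in edgeR were among the 7 trypsins below thetaTry in level. The median change of the 46 genes was −0.08 on the log2 scale and that of all genes 0.01, with 28 enzyme genes lower and 18 higher. The members' share called lay below that of all genes. Standard errors of the 3 called genes were at most 0.12, against 0.46 for Jon25Bii and 0.86 for Jon65Aii, whose levels differed widely between lines.

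Of these, lambdaTry (FBgn0043470, 2R 11336840 to 11337791) fell most. Its CPM ran from 39.4 to 60.9 with a median of 46.8 without heat shock, and from 21.3 to 40.2 with a median of 27.5 with it. The ranges overlapped by a single library, RAL93 with heat shock. The log2 change was −0.69 ± 0.11 (SE, n = 9 lines, adjusted p = 1.77e-04, edgeR), and it was lower in 9 of 9 lines.

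kappaTry (FBgn0043471, 2R 11337797 to 11338733) ran from 29.8 to 53.0 CPM without (median 40.5) and from 20.7 to 37.5 with heat shock (median 26.2). The log2 change was −0.55 ± 0.12 (adjusted p = 0.00363, edgeR), with 8 of 9 lines lower and RAL93 level at 37.5 CPM under both treatments. Both genes point at each other, with 5 bases between their ends. iotaTry, at the far end of the cluster, ran from 8.54 to 19.9 CPM without (median 14.4) and from 8.33 to 14.4 with heat shock (median 11.4). Its groups overlapped widely, 8 of 9 lines were lower, and the log2 change was −0.34 ± 0.11 (adjusted p = 0.0431, edgeR). That call was lost when any 1 of RAL359, RAL69, RAL93, RAL304, RAL737, RAL387 or RAL195 was left out (adjusted p from 0.0549 to 0.143).

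Since each line gave both libraries, a fit with line as a block compares heat shock with none inside lines. It called 13 of 46 genes, 11 lower and 2 higher, beside 35.2% of all genes (18.9% lower, 16.3% higher). The added genes were etaTry, zetaTry, Jon25Bii and 7 maltases. With the block, zetaTry stood at −0.25 ± 0.06 (adjusted p = 0.00565) and etaTry at −0.33 ± 0.09 (adjusted p = 0.0101). Both were lower in 9 of 9 lines, though nearly level in RAL304. There zetaTry went from 23.5 to 23.4 CPM and etaTry from 7.15 to 7.03 CPM. The 4 trypsins lambdaTry, kappaTry, zetaTry and etaTry are consecutive genes at one end of the cluster. The 6 trypsins between them and iotaTry, thetaTry to deltaTry, were called in neither fit: alphaTry, the most abundant, stood at 0.03 ± 0.20 and betaTry at −0.22 ± 0.19.

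Jon25Bii was the Jonah gene with the steadiest fall. It went from a median of 172 CPM (57.2 to 391) to 58.2 CPM (19.4 to 166), and was lower in each of 9 lines. Because lines differed so widely, the fit without a block gave −1.22 ± 0.46 (adjusted p = 0.0789, edgeR), and the fit with it −1.17 ± 0.13 (adjusted p = 2.29e-05). Its neighbours on either side were not called: Jon25Biii averaged 453 CPM in untreated and 460.5 CPM in heated pools (0.12 ± 0.11 with the block), and Jon25Bi 317 and 306 (−0.06 ± 0.14). Of 46 genes, 4 were lower in every line (Jon25Bii, lambdaTry, zetaTry and etaTry), against 11.7% of all genes, and 1 was higher in every line (Mal-B1), against 10.4%.

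Mal-B1 (2L), an alpha-glucosidase gene, went from a median of 12.7 CPM (3.23 to 25.4) to 25.2 CPM (10.3 to 54.9). Groups overlapped, while each line was higher with heat shock. The log2 change was 1.09 ± 0.38 without a block (adjusted p = 0.0529, edgeR) and 1.24 ± 0.24 with it (adjusted p = 0.00153). DESeq2, also without a block, called it at 1.10 ± 0.40 (adjusted p = 0.0316). Mal-B1 lies opposite Pde1c, a phosphodiesterase gene, which had 64.3 ± 6.51 CPM in untreated and 66.4 ± 6.43 CPM in heated pools, a log2 change of 0.05 ± 0.07 (adjusted p = 0.771, edgeR).

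The 8 maltases of the Mal-A cluster ran mostly the other way. With line as a block, Mal-A1 (−0.53 ± 0.18), Mal-A8 (−0.48 ± 0.17), Mal-A6 (−0.46 ± 0.13), Mal-A2 (−0.41 ± 0.11) and Mal-A3 (−0.36 ± 0.11) were called lower, at adjusted p-values from 0.0102 to 0.0429. Mal-A5 was called higher (0.14 ± 0.04, adjusted p = 0.0255). Without a block none of the 8 passed in edgeR, the smallest adjusted p being that of Mal-A2 (0.175). Mal-A2 did pass when libraries were scaled by their totals alone (−0.61 ± 0.18, adjusted p = 0.0135, edgeR). Mal-A1 and Mal-A8 overlap genes on the other strand, Cyp4e1 and mtt, whose own changes with the block were 0.25 ± 0.07 and 0.22 ± 0.07. Summed maltases averaged 1573 ± 775 CPM untreated and 1257 ± 492 CPM heated (SD, n = 9).

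**Figure D4:**
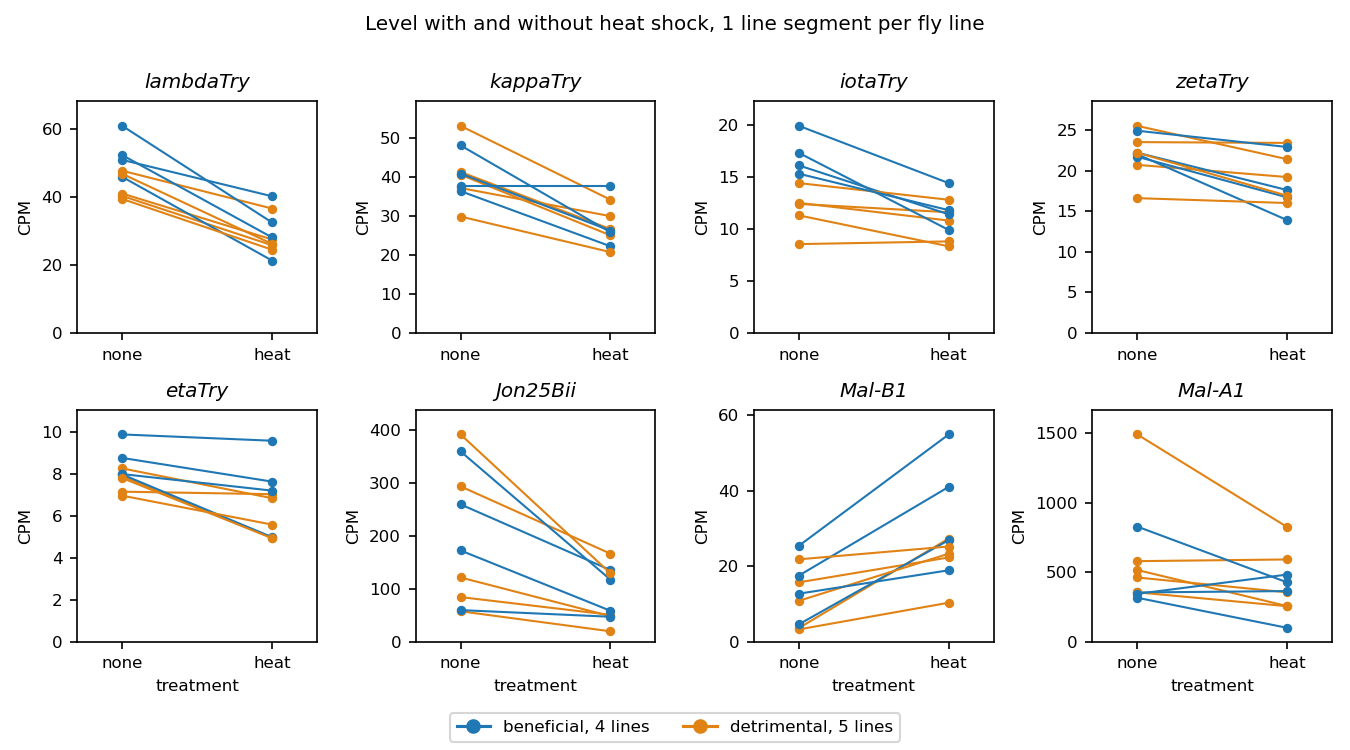
CPM of 8 genes without and with heat shock, 1 segment per line (4 beneficial in blue, 5 detrimental in orange). Segments of lambdaTry, zetaTry, etaTry and Jon25Bii all run down, those of zetaTry and etaTry being nearly level in RAL304. Those of Mal-B1 all run up, and those of kappaTry, iotaTry and Mal-A1 run down in most lines.

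Of the 10 genes that were the 2 highest of their family in CPM, Mal-A1 and Mal-A6 were called lower with line as a block, as given above, and the other 8 were called in neither fit. Jon65Aiv averaged 1697 ± 483 CPM in untreated and 1577 ± 432 CPM in heated pools, a log2 change of −0.10 ± 0.16 (adjusted p = 0.792, edgeR; −0.11 ± 0.13 with the block). Without the block, Jon99Cii stood at 0.21 ± 0.28, and its sum with Jon99Ciii at 0.19 ± 0.27. Amylases summed to 0.04 ± 0.31, and LysB to LysE to −0.28 ± 0.24, on the log2 scale. LysB alone stood at −0.22 ± 0.24 and LysD at −0.34 ± 0.26, and with the block at −0.23 ± 0.17 and −0.29 ± 0.15. These intervals are wide enough to leave a moderate change in either direction undetected. LysRS, the spelling match, stood at 0.04 ± 0.06.

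Within the classes, the calls without a block were all trypsins, at shares below those of all genes. In beneficial lines 1 of 46 genes was called, lambdaTry (−0.78 ± 0.16, adjusted p = 0.00506, edgeR), beside 7.63% of all genes. In detrimental lines 2 were called, lambdaTry (−0.61 ± 0.15, adjusted p = 0.0109) and kappaTry (−0.56 ± 0.17, adjusted p = 0.0380), beside 9.96% of all genes. With line as a block these counts were 6 and 5, beside 19.4% and 22.9%. They then held Jon25Bii, lower, and Mal-B1, higher, in both classes. The lambdaTry call in detrimental lines was lost without RAL737 (adjusted p = 0.0649), and that of kappaTry without RAL304, RAL387, RAL335, RAL195 or RAL819 (adjusted p from 0.0586 to 0.145).

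The difference between the responses of both classes was called for 0 of 46 genes in edgeR, with 0 at an unadjusted p under 0.05, and DESeq2 gave the same counts. Of all genes 0% were called by either tool, and 0.294% had an unadjusted p under 0.05 in edgeR and 0.280% in DESeq2. Neither fit held line as a block, so differences between lines entered their errors and these counts of 0 decide little. The smallest p belonged to iotaTry, whose response differed by −0.35 ± 0.22 on the log2 scale, beneficial minus detrimental (unadjusted p = 0.127). With line as a block this was −0.36 ± 0.12 (unadjusted p = 0.0112), the 1 gene of 46 under 0.05, where 2.37% of all genes were, and it did not pass adjustment. Mal-A4 (−0.43 ± 0.42) and zetaTry (−0.19 ± 0.21) followed.

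How the 46 genes moved together differed from line to line. In RAL93, 36 of 46 genes were higher with heat shock, with a median of 0.64 on the log2 scale and a summed level that went from 9468 to 17048 CPM. In RAL304, 34 were higher with a median of 0.20, which turned to −0.08 with 18 higher when libraries were scaled by their totals alone, a check chosen after the data were seen. The small medians of RAL387 (0.11) and RAL335 (0.02) turned to −0.15 and −0.20 in the same way. In RAL359, 38 of 46 were lower (median −0.67), and in RAL819, 42 (median −0.27). The median over all genes lay between −0.08 and 0.02 in each of the 10 lines. Each of these values compares 1 pool with 1 pool, so no test applies, and the class of a line did not order them: RAL93 and RAL359, at both extremes, are beneficial.

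The 8 enterocyte markers that are no members, none at 0 on average and CG12374 by far the highest, summed to 1191 to 3628 CPM over untreated and 1871 to 3828 CPM over heated pools. CG12374 alone went from 888 to 3529 CPM in RAL93, from 1305 to 3027 CPM in RAL304 and from 1613 to 1640.1 CPM in RAL359. The 7 others summed to 303 and 299 CPM in RAL93, 303 and 395 in RAL304 and 251 and 231 in RAL359. The median log2 change of all 8 markers was 0.19 in RAL93, 0.48 in RAL304 and −0.11 in RAL359, against 0.41 in RAL737, where the enzyme genes had a median of −0.30. Their part in the result was not tested. With libraries scaled by their totals alone, the medians of the 46 enzyme genes, not of the markers, were 0.44 in RAL93 and −0.77 in RAL359.

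**Figure D5:**
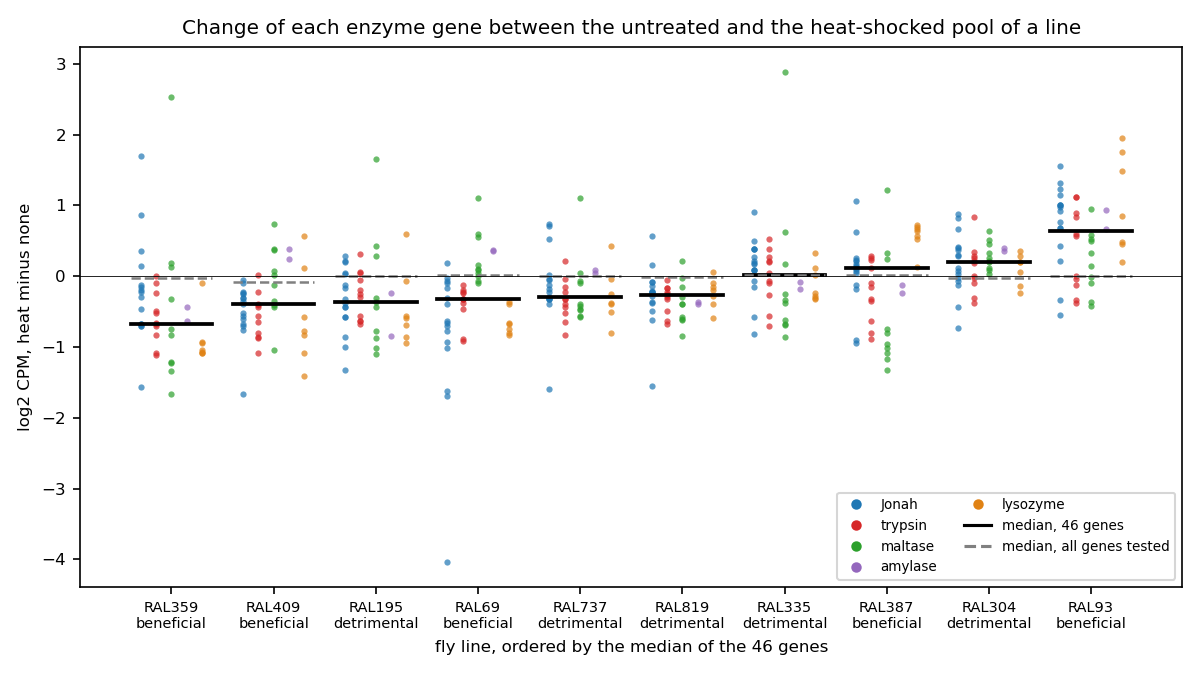
Difference in log2 CPM between the heat-shocked and the untreated pool of each of 10 lines, 1 point per gene coloured by family. The black bar is the median of the 46 genes and the dashed line that of all genes tested. Lines run from a median of −0.67 in RAL359 to 0.64 in RAL93, while the dashed lines stay near 0.

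The comparison of classes, the one the study set out to make under each treatment, asks whether beneficial and detrimental lines differed. Without heat shock 0 of 45 genes were called in edgeR, and 8 had an unadjusted p under 0.05, all 8 higher in beneficial lines (17.8%), where 2.00% of all 13770 genes were. DESeq2 called 0 as well, beside 0.123% of all genes, with 9 at an unadjusted p under 0.05, beside 4.71%. The median of the 45 genes was 0.27 on the log2 scale, beneficial over detrimental, and that of all genes lay near 0. By family, all 7 lysozymes, the pseudogene LysC included, stood higher (median 0.88), 13 of 15 Jonah genes and 10 of 11 trypsins as well (medians 0.38 and 0.29). Both amylases and 7 of 10 maltases stood lower (medians −0.70 and −0.33). Clustered copies share sequence and lines, so the genes of a family are not independent. Family sums of the classes overlapped. Lysozymes summed to 416 to 1619.7 CPM in the 4 beneficial and 433 to 694 CPM in the 5 detrimental lines. Jonah genes summed to 4709 to 9195 and 4198 to 7855 CPM. RAL409, beneficial but left out of the test, had 536 CPM of lysozymes and 6507 CPM of Jonah genes, both inside the detrimental ranges.

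Classes did not overlap for 3 of 45 genes, all higher in beneficial lines, beside 0.668% of all genes. Jon99Fii was 341, 442, 345 and 324 CPM in RAL69, RAL93, RAL359 and RAL387. It was 136, 63.5, 298, 87.7 and 129 CPM in RAL195, RAL304, RAL335, RAL737 and RAL819. RAL335 thus lay close to the beneficial lines. The log2 difference was 1.34 ± 0.38 (adjusted p = 0.999, edgeR), and the authors' deposited table gives 1.34 ± 0.36 with an adjusted p of 0.0985, 1 of 46 genes under 0.1 there, beside 0.196% of its genes.

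The low lysozyme gene LysS (FBgn0004430) was 0.783, 1.56, 5.78 and 1.40 CPM in RAL69, RAL93, RAL359 and RAL387. It was 0.602, 0.511, 0.648, 0.487 and 0.566 CPM in the 5 detrimental lines. RAL69 stood only just above them, and RAL409, the beneficial line left out, had 0.763 CPM. The log2 difference was 2.07 ± 0.53 (adjusted p = 0.999, edgeR). iotaTry was 19.9, 15.3, 16.1 and 17.3 CPM in the beneficial and 12.5, 12.4, 8.54, 11.3 and 14.4 CPM in the detrimental lines, a log2 difference of 0.54 ± 0.15 (adjusted p = 0.999).

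After heat shock 0 of 46 genes were called in edgeR and 9 had an unadjusted p under 0.05, 7 higher and 2 lower, beside 4.40% of all 13877 genes. LysS was 0.579, 5.44, 3.0 and 2.35 CPM in RAL69, RAL93, RAL359 and RAL387 and 0.277, 0.458, 0.827, 0.397 and 0.351 CPM in the detrimental lines. RAL335 was now above RAL69, so the classes overlapped, and RAL409 had 0.240 CPM. The log2 difference was 2.60 ± 0.57, with an adjusted p of 0.999 in edgeR and 0.0195 in DESeq2, where LysS was the 1 gene of 46 called beside 0.0793% of all genes. The authors' deposited table gives 2.51 ± 0.58 with an adjusted p of 0.0250, the 1 of 46 genes under 0.1 there, beside 0.174% of its genes. The gene mwh, which overlaps LysS on the same strand, averaged 16.6 ± 3.05 CPM in untreated and 18.9 ± 4.32 CPM in heated pools (SD). Whether reads of mwh entered the LysS counts was not tested.

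Mal-A4 was the 1 gene of 46 whose classes did not overlap after heat shock, lower in beneficial lines, beside 0.670% of all genes. It was 26.2, 25.5, 22.7 and 28.4 CPM in RAL69, RAL93, RAL359 and RAL387 and 33.0, 82.9, 37.1, 33.7 and 55.8 CPM in the detrimental lines. The beneficial lines lay in a narrow band under a wider spread of detrimental ones. The log2 difference was −0.92 ± 0.27 (adjusted p = 0.999, edgeR). Jon99Fi was 557, 569, 224 and 359.7 CPM in the beneficial and 234, 135, 88.9, 237 and 228 CPM in the detrimental lines, which overlapped at RAL359, with a log2 difference of 1.21 ± 0.34 (adjusted p = 0.999).

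Genes around the enzymes were compared between heat shock and none from fixed lists. Of 11 genes listed for midgut identity, 6 fell and 3 rose in edgeR, beside 9.73% lower and 8.38% higher of all genes. With line as a block all 11 were called, 8 lower and 3 higher, beside 18.9% and 16.3%. GATAe, the GATA factor of the endoderm, went from 12.0 to 14.8 CPM without to 2.46 to 4.66 CPM with heat shock, groups that do not overlap (log2 −1.89 ± 0.09, adjusted p = 8.23e-11). The homeobox genes Ptx1 (−1.24 ± 0.10) and exex (−1.16 ± 0.12) fell too, and mex1 rose (0.70 ± 0.11). Between lines 2 of these 11 genes were called, and 24 of 29 other tested digestive genes, beside 62.9% of all genes. The latter list holds genes such as lipases, mannosidases and peptidoglycan amidases.

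Of these 29, heat shock lowered 2 and raised 1 in edgeR, and 7 and 4 with line as a block. The shares of all genes, also for the next list, were 9.73% lower and 8.38% higher. With the block they were 18.9% and 16.3%. Npc2d, for a sterol-binding protein, fell (−1.50 ± 0.17, adjusted p = 3.56e-06), as did the mucin gene Muc68D (−0.70 ± 0.15), and CtsL1, a cathepsin, rose (0.26 ± 0.09). Among 13 genes of sugar signalling, 3 fell and 1 rose, and with the block 3 each, Mondo (0.12 ± 0.04) and foxo (0.22 ± 0.06) being added. daw, an activin ligand known to act on digestive enzyme genes in sugar-fed flies, fell by 1.45 on the log2 scale (SE 0.18, adjusted p = 1.47e-05), and sug, a sugar-induced transcription factor, by 1.23 (SE 0.24, adjusted p = 0.00136). Smox fell too (−0.21 ± 0.06), and the insulin receptor InR rose (0.84 ± 0.16). No amylase or maltase gene was called in edgeR without the block, while DESeq2 called Mal-B1 higher. With the block, Mal-A1, Mal-A2, Mal-A3, Mal-A6 and Mal-A8 were lower and Mal-A5 and Mal-B1 higher, as given above. Any link of these enzyme genes to daw or sug was not tested.

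Other tissues of the whole fly were checked with their markers. Of all genes, 18.1% were called without the block (9.73% lower, 8.38% higher) and 35.2% with it (18.9% lower, 16.3% higher). Of 7 fat body markers FASN1 fell (−0.68 ± 0.21, adjusted p = 0.0306, edgeR). Of 7 hemocyte markers crq fell, and of 6 Malpighian tubule markers Picot and Irk1 did. Among 9 enteroendocrine markers CCHa1 rose, and among 4 progenitor markers klu fell. No marker of muscle, testis, accessory gland or neurons passed without the block. With line as a block, elav of the 6 neuron markers rose (0.36 ± 0.07, adjusted p = 0.00114), and still none of muscle, testis or accessory gland passed. The block also called 4 fat body markers (1 higher, 3 lower, Lsd-1 at −0.47 ± 0.07), 3 of hemocytes (1 higher, 2 lower), 4 of the tubule (all lower), 2 of enteroendocrine cells and 2 of progenitors (1 higher and 1 lower in each). The part of any tissue share in the enzyme results was not tested.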

How the data were processed

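The authors deposited whole-number counts per FlyBase gene for 20 libraries (10 lines, 2 treatments). The submitters' processing notes name BDGP6 as build, with the tools Bowtie2 2.2.9, SAMtools 1.12 and DESeq2 1.28.1; counting tool, annotation and the treatment of reads that match several genes were not given in the sources used here. Per the file headers, the authors' 2 deposited class tables hold log2 ratios with errors, a mean signal, a test score and p-values; RAL409 was omitted from them. Symbols and positions came from the Ensembl annotation of BDGP6.

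Counts were tested in R 4.3.3 with edgeR 4.0.16 (filterByExpr, TMM, quasi-likelihood F tests, Benjamini-Hochberg over all genes tested, threshold 0.05), with RAL409 left out except between lines. log2 CPM used a prior count of 2. The same line stood under both treatments: deviations from group means correlated at 0.547 to 0.800 in 9 of 9 lines, so fits with line as a block are given beside results they change. Alternatives were DESeq2 1.42.0, other scaling and filters, summed copies, each line left out and a threshold of 0.1. Tests were tried on simulated counts.

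Members and gene lists were chosen with earlier results of these data known. Genes named are those called under heat shock, the 2 highest of each family, the 10 widest over lines among those with a mean of at least 1 CPM, the 3 smallest p-values of each class comparison, members under 0.1 in an authors' table, and up to 4 called genes per list. Genes called only with line as a block, and some neighbours, were added after their values were seen.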

Additional observations from a re-analysis of the deposited data

Results flagged for a closer look

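In 104 groups of 4 or 5 libraries, from 26 genes in 4 groups each, 9 held a library far from the rest by Dixon's criterion, where chance gives about 1 in 20 for genes not chosen by their values. Many of the 26 were chosen for wide differences between lines or classes, and a line recurs under both treatments, so that rate is no measure for these 9. RAL737 was the low library of detrimental lines for LysP without (0.150 CPM, others 34.7 to 95.3) and with heat shock (0.227 CPM, others 36.1 to 95.7), and for thetaTry without it (10.7 CPM, others 55.2 to 106). In detrimental lines RAL819 was low for LysB without heat shock (58.9 CPM, others 91.2 to 102). After heat shock RAL195 was low for Mal-B1 (10.3 CPM, others 22.3 to 27.3) and RAL304 high for lambdaTry (36.6 CPM, others 24.5 to 27.5). In beneficial lines RAL69 was high for Amy-d after heat shock (795 CPM, others 182 to 232). Without heat shock RAL387 was high for Mal-A1 (829 CPM, others 316 to 354) and RAL93 for zetaTry (24.9 CPM, others 21.7 to 22.2).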

How the results depend on the processing

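Calls among the 46 genes depended most on how line was treated. Heat shock with line as a replicate block called 13 genes in place of 3 over all lines, 6 in place of 1 in beneficial lines and 5 in place of 2 in detrimental lines. The shares of all genes were 35.2%, 19.4% and 22.9%, in place of 18.1%, 7.63% and 9.96%. Library totals alone gave 7, 4 and 4 genes, with the median of all genes shifted to −0.19 from 0.01 on the log2 scale and the share of higher calls among all genes at 14.1% in place of 46.3%. Over all lines, DESeq2 called 5, a threshold of 0.1 gave 6 and RAL409 included gave 6, and in beneficial lines these gave 2, 3 and 3. DESeq2 called 20.4% of all genes over all lines and 9.53% in beneficial lines. Shares of all genes at the threshold of 0.1, with RAL409 included and with each line left out are not given here. Leaving out each line in turn gave 2 to 4 genes over all lines, 1 to 2 in beneficial and 1 to 2 in detrimental lines. DESeq2 called 1 gene, LysS, between the classes after heat shock. The difference of responses and the classes without heat shock stayed at 0 genes under all alternatives run. Between lines 41 to 44 genes were called with each line left out and 38 of 40 with copies summed. The main fit called 62.9% of all genes there. The iotaTry call was also lost with DESeq2's size factors (adjusted p = 0.0529). No single-gene result reversed. With library totals the median responses of RAL304 (0.20), RAL387 (0.11) and RAL335 (0.02) changed sign, to −0.08, −0.15 and −0.20. Of single-gene comparisons with an alternative, 800 kept their side of the threshold, 29 gained and 14 lost a call. Over all 14270 genes, 2585 heat shock calls became 5026 with the block and 5000 with library totals.

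A single pool per line and treatment gives no spread between pools of a line, and weakly detected genes such as LysS, LysX and Jon66Cii rest on few counts.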
